A study of Mus musculus with 55 samples.

Results

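Gonadal white adipose tissue (goWAT) of mice that drank corticosterone at 13 °C was compared with that of mice given placebo at the same temperature. The comparison rests on 10 of the 55 libraries of the series, 5 labelled GC_CT (corticosterone, 13 °C) and 5 labelled Ctrl_CT (placebo, 13 °C), which were chosen by these labels alone. All animals were male C57BL/6NRj mice aged 10 weeks, treated through the drinking water for 4 weeks. Both groups lived in mild cold, so the controls carry the cold too. The series asks how housing temperature alters the effects of glucocorticoids on different fat depots. Groups set beside these were goWAT at 22 °C with corticosterone (GC_RT, 5 libraries) or placebo (Ctrl_RT, 4 libraries), and subcutaneous white fat (scWAT) at 13 °C with corticosterone (4 libraries) or placebo (5 libraries). Areas of cryosections were collected by laser capture microdissection, and about 2 ng of total RNA per sample went into SMART-Seq2 libraries, a method that copies whole transcripts from very little RNA. Which animal gave each library, and how the areas were chosen, is not in the labels. Libraries may share an animal within or across depots, so the p-values cover the spread among libraries only. If libraries of the same group and depot share an animal, the p-values would be too small. Sharing across depots does not bear on the comparisons within goWAT. Its effect on the comparison between depots cannot be judged, since the labels do not name the animals.

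Corticosterone is the main glucocorticoid of mice. It enters cells and binds the glucocorticoid receptor, a nuclear receptor encoded by Nr3c1, which then moves to the nucleus and raises or lowers the transcription of its target genes. In fat these hormones act on lipolysis, adipokine output, matrix, immune cells and the circadian clock, and a daily rhythm of the hormone helps to set clocks in peripheral tissues. Epididymal fat, the gonadal depot of male mice, lies against the epididymis and is a large store of triglyceride.

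The 5 GC_CT libraries held 26386416 to 53121372 gene counts and the 5 Ctrl_CT libraries 26050829 to 37806959. The 12 defining markers of white adipocytes were high in every library, with a summed level of 64740 to 81590 CPM (counts per 1000000 of the TMM-adjusted library size) in GC_CT and 69080 to 100700 CPM in Ctrl_CT, and none of them was at 0. Several libraries stood apart. The 13 epididymis markers summed to 0.121 to 28.0 CPM in the 5 GC_CT libraries, against 706 CPM in Ctrl_CT 1, 4602 CPM in Ctrl_CT 4 and 4.83 to 8.12 CPM in the other 3 Ctrl_CT libraries. Brown adipocyte markers summed to 2209 CPM in GC_CT 1 and to 46.2 to 100.4 CPM in the other 4 GC_CT libraries, against 80.8 to 246 CPM in Ctrl_CT. The liver transcripts Apoa1, Apoa2 and Ttr, named after their values were seen, reached 563, 112 and 69.8 CPM in GC_CT 3. The share of counts from mitochondrial transcripts was 5.64% and 5.71% in GC_CT 1 and 2 and 1.67% to 2.26% in GC_CT 3 to 5, against 2.87% to 5.77% in Ctrl_CT. The first principal component of log2 CPM, with 23.7% of the variance, placed GC_CT 3, 4 and 5 at 59.4 to 93.5 and GC_CT 1 and 2 at -7.43 and -6.79, against -57.9 to -26.4 in Ctrl_CT. In bulk tissue, fewer cells of a type and less RNA per cell cannot be told apart.

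**Figure D1:**
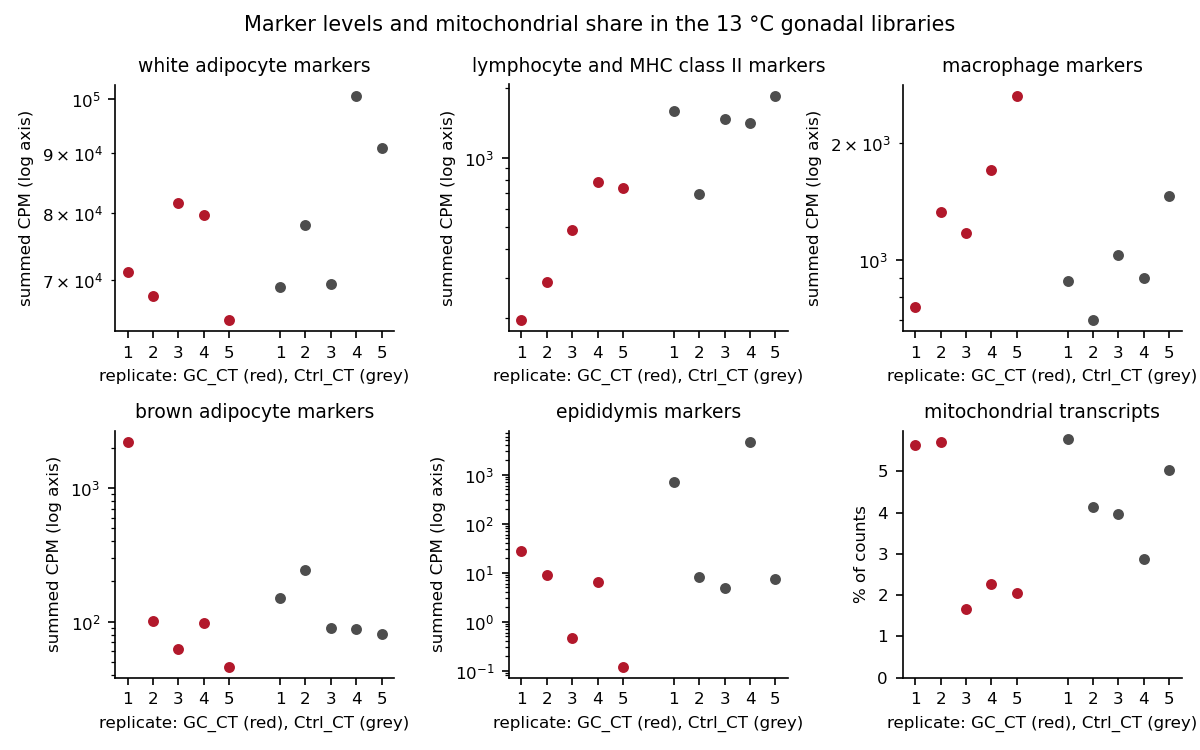
Summed CPM of marker lists on log axes and the mitochondrial share of counts in percent (y axes) in each GC_CT (red) and Ctrl_CT (grey) library of goWAT, by replicate (x axes). Brown adipocyte markers were high in GC_CT 1 (2209 CPM), epididymis markers in Ctrl_CT 1 and 4 (706 and 4602 CPM), and the mitochondrial share was 1.67% to 2.26% in GC_CT 3 to 5.

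Corticosterone at 13 °C went with higher expression of the clock activators Arntl and Npas2, the small heat shock proteins Hspb7 and Hspb1, the folate enzyme Mthfd2, the phosphatase Dusp10, matrix regulators such as Timp4, and leptin. It went with lower expression of the period genes, of the clock output factors Dbp, Tef and Hlf, of Irf4, of the vitamin transporter Slc5a6, of MHC class II genes and of the receptor targets Klf9 and Sgk1. Of 20175 genes tested with edgeR's quasi-likelihood test, 292 (1.45%) passed a Benjamini-Hochberg adjusted p of 0.05 and are said to be called. Of these, 171 (0.848%) were higher and 121 (0.6%) lower in GC_CT. Libraries of the groups did not overlap for 228 of the 292 genes, and for 966 (4.79%) of all tested genes. Protein-coding genes made up 258 of the 292. The count of calls was 165, 149, 135 and 117 without Ctrl_CT 1, 3, 4 or 5, and 140, 181 and 134 without GC_CT 3, 4 or 5. It was 85 without both epididymis-rich libraries (Ctrl_CT 1 and 4), which leaves 3 controls, 377 without the brown-rich GC_CT 1, and 738 without GC_CT 1 and 2, the GC_CT libraries of high mitochondrial share. Of the 292 genes, 291 kept their sign without the epididymis-rich libraries and 80 were called again. The liver transcript Apoa1 was among the calls (8.68 ± 1.92, adjusted p 0.0355), with a log2 fold change of 4.37 without GC_CT 3. Its call was lost without GC_CT 5 or any 1 Ctrl_CT library (adjusted p up to 0.0951) and without the epididymis-rich libraries (0.225).

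Clock genes made up the first group. Arntl (BMAL1) and Npas2, partners in the activating arm of the clock, and Nfil3, a repressor of D-box genes, rose. Per1, Per2 and Per3 of the repressing arm fell, as did the repressors Nr1d2 (REV-ERB beta) and Ciart, the D-box activators Dbp, Tef and Hlf, and Usp2, a deubiquitinase whose transcript cycles with the clock. Of 3 core activators 2 rose, of 5 period and cryptochrome genes 3 fell, and of 12 repressors and output factors 1 rose and 6 fell. Median log2 fold changes of these 3 lists were 3.53, -2.04 and -1.31, beside 0.01 over all tested genes.

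Promoter windows are shown for 7 called clock genes with an entry in the RefSeq table of GRCm38.p6, those with the smallest adjusted p in each direction, so that the promoters of genes that rose (Arntl, Npas2 and Nfil3) can be read beside those of genes that fell (Per1, Ciart, Dbp and Tef). Each window runs from 250 bases before to 50 bases after an annotated transcript start, 5′ to 3′ on the gene's strand, and where a gene has more than 1 window the first is printed. Capitals mark matches on either strand to 4 motifs: the E-box CACGTG bound by CLOCK and BMAL1 partners, the D-box TTATGNAA of the Dbp family, the nuclear receptor core element AGGTCA, and the palindromic glucocorticoid response element.
Arntl, chr7:113207215-113207514, plus strand: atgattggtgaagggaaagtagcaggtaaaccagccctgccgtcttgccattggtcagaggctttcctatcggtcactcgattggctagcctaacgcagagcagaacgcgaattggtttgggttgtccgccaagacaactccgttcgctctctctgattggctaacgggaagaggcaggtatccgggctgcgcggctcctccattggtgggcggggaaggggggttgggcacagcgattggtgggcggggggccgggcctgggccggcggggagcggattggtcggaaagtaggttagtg
Npas2, chr1:39194022-39194321, plus strand: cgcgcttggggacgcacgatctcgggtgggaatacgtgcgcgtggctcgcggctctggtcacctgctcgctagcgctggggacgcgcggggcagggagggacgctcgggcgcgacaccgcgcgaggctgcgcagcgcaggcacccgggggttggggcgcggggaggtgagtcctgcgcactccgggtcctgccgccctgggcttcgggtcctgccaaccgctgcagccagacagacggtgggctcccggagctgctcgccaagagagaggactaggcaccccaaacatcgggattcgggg
Nfil3, chr13:52980990-52981289, minus strand: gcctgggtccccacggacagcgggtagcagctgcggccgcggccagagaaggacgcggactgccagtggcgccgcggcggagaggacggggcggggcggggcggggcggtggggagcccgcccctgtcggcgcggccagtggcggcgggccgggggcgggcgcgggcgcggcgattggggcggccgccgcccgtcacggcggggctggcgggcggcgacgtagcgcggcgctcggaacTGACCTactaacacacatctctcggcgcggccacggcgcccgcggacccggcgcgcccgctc
Per1, chr11:69098699-69098998, plus strand: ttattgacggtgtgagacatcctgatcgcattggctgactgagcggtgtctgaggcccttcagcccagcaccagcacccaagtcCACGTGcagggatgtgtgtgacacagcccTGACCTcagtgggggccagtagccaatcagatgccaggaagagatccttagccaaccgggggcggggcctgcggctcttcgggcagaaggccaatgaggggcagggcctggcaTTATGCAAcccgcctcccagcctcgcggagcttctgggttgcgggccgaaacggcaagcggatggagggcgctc
Ciart, chr3:95882179-95882478, minus strand: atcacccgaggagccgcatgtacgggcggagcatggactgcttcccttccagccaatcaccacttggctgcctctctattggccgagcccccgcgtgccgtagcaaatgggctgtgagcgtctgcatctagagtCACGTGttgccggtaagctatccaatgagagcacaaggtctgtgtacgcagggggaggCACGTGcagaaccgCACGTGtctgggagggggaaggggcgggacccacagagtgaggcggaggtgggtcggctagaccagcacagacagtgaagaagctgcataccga
Dbp, chr7:45704997-45705296, plus strand: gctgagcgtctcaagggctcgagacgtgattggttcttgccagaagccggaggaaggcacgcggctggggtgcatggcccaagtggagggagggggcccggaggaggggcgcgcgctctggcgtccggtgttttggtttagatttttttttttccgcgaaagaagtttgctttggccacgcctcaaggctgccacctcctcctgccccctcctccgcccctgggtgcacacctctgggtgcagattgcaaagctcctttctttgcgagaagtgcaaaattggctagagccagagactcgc
Tef, chr15:81802423-81802722, plus strand: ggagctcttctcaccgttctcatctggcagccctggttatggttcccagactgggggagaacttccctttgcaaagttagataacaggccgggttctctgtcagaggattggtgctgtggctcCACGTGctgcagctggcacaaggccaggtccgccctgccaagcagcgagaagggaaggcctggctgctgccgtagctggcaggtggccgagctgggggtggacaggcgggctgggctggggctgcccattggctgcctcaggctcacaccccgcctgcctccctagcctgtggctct

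The printed Ciart window held 3 E-boxes, and those of Per1 and Tef 1 each. That of Per1 also held 1 D-box and 1 core element, which do not overlap each other or the E-box, and that of Nfil3 held 1 core element. The printed windows of Arntl, Npas2 and Dbp held none of the 4 motifs, which says only that these letters are not in these bases. Arntl also had a second window, not printed, which held 1 core element. Among 32817 promoter windows of the table, 7.15% held the E-box, 3.39% the D-box, 16.3% the core element and 0.475% the response element. None of the 14 windows of the 11 called clock genes with an entry held the response element. A match is a description of the letters and not a binding site.

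Arntl (chromosome 7, 113207465 to 113314126 on GRCm38) had 23.8, 22.4, 37.0, 16.4 and 26.1 CPM in GC_CT, against 1.24, 1.64, 3.81, 2.58 and 1.601 CPM in Ctrl_CT. Every GC_CT library lay above every Ctrl_CT library, and the log2 fold change was 3.53 ± 0.39 (SE), an 11.6-fold difference with an edgeR adjusted p of 3.32e-05. Npas2, which can take the place of CLOCK beside BMAL1, had 4.85, 5.41, 10.5, 8.07 and 7.44 CPM in GC_CT, against 0.327, 0.316, 1.08, 0.150 and 0.0828 CPM in Ctrl_CT (log2 fold change 4.22 ± 0.64, adjusted p 0.00103). Its control level of 0.0828 to 1.08 CPM was low, with 1 count worth 0.025 to 0.0327 CPM in the Ctrl_CT libraries. Without Ctrl_CT 3 the log2 fold change of Npas2 was 5.04. Nfil3 had 14.2 to 47.0 CPM in GC_CT and 4.91 to 11.1 CPM in Ctrl_CT, with no overlap (1.95 ± 0.44, adjusted p 0.0266). Clock itself was not called, at 29.8 to 71.0 CPM in GC_CT and 20.4 to 37.2 CPM in Ctrl_CT (0.75 ± 0.24, adjusted p 0.117).

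Per1 (chromosome 11, 69095217 to 69109960), both a clock repressor and a direct target of the glucocorticoid receptor, had 6.88, 6.86, 8.21, 8.20 and 5.66 CPM in GC_CT, against 44.7, 28.4, 29.2, 52.7 and 43.6 CPM in Ctrl_CT. The GC_CT libraries were tight and all below the lowest control, with a log2 fold change of -2.47 ± 0.25 and an adjusted p of 3.02e-05. Per2 had 2.90 to 9.76 CPM in GC_CT and 23.0 to 31.0 CPM in Ctrl_CT (-2.42 ± 0.38, adjusted p 0.00155), and Per3 8.09 to 18.5 CPM in GC_CT and 44.0 to 86.5 CPM in Ctrl_CT (-2.04 ± 0.37, adjusted p 0.0051). Neither gene overlapped between the groups. The cryptochromes Cry1 and Cry2, which act beside the period proteins, overlapped and were not called (0.31 ± 0.51 and 0.29 ± 0.35).

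Ciart, a repressor of CLOCK and BMAL1 activity, had 0.970, 0.387, 0.659, 0.0659 and 0.608 CPM in GC_CT, against 12.1, 21.4, 15.2, 14.8 and 19.8 CPM in Ctrl_CT (-4.95 ± 0.53, adjusted p 3.32e-05). Dbp, a transcription factor whose level follows the clock closely, had 1.56, 1.30, 0.546, 1.63 and 0.729 CPM in GC_CT, against 19.5, 18.4, 17.4, 16.2 and 13.6 CPM in Ctrl_CT (-3.89 ± 0.43, adjusted p 3.32e-05). Each GC_CT library was below every control for both genes. Tef had 25.7 to 49.5 CPM in GC_CT and 90.3 to 159 CPM in Ctrl_CT (-1.95 ± 0.24, adjusted p 9.71e-05), Hlf 1.54 to 5.10 CPM in GC_CT and 11.5 to 24.0 CPM in Ctrl_CT (-2.62 ± 0.43, adjusted p 0.0022), and Nr1d2 9.38 to 25.6 CPM in GC_CT and 52.9 to 94.6 CPM in Ctrl_CT (-2.13 ± 0.30, adjusted p 0.000469). These 3 did not overlap either. Usp2 ranged over 9.39 to 46.0 CPM in GC_CT and 51.0 to 110.5 CPM in Ctrl_CT (-1.86 ± 0.45, adjusted p 0.04).

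Nr1d1 (REV-ERB alpha), a main repressor of Arntl, was below every control without passing the threshold, at 57.7 to 88.6 CPM in GC_CT and 103 to 144 CPM in Ctrl_CT (-0.76 ± 0.20, adjusted p 0.0547). Bhlhe40 and Bhlhe41, further repressors, and Rora, an activator of Arntl, were not called, with log2 fold changes of -0.69 to -0.30. Of the 12 called clock genes, 10 were called in each of the 10 fits that left out 1 library. The call of Nfil3 was lost without GC_CT 4 or 5 or Ctrl_CT 1, 3, 4 or 5 (adjusted p up to 0.081), and that of Usp2 without GC_CT 2, 3, 4 or 5 or Ctrl_CT 1, 2, 4 or 5 (up to 0.104). Without both epididymis-rich libraries the adjusted p was 0.0509 for Per3, 0.189 for Nfil3 and 0.126 for Usp2, and the other 9 stayed called. The labels give no time of day for the collection, and its part in these differences was not tested.

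**Figure D2:**
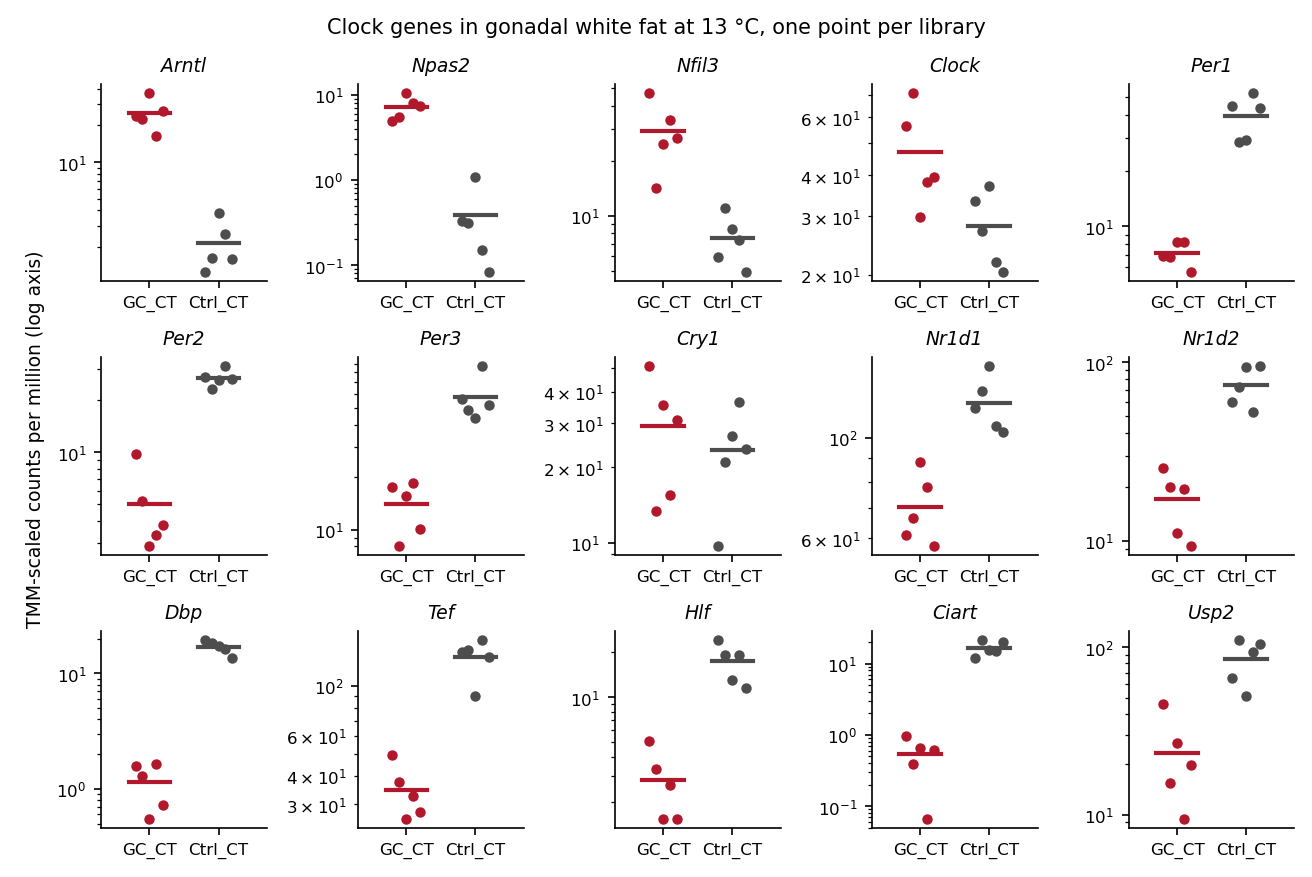
CPM (y axis, log scale) of clock genes in the 5 GC_CT (red) and 5 Ctrl_CT (grey) libraries of goWAT, 1 point per library, with bars at the group means. Arntl lies at 16.4 to 37.0 CPM in GC_CT and 1.24 to 3.81 CPM in Ctrl_CT, and Per1 at 5.66 to 8.21 CPM in GC_CT and 28.4 to 52.7 CPM in Ctrl_CT.

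The small heat shock proteins Hspb7 and Hspb1 rose. Hspb7 (chromosome 4, 141420779 to 141425311), best known from heart and muscle, had 107, 135, 327, 38.7 and 230.1 CPM in GC_CT, against 10.9, 3.21, 6.29, 15.7 and 10.7 CPM in Ctrl_CT. The groups did not overlap, although GC_CT 3 was far above GC_CT 4, and the log2 fold change was 4.16 ± 0.52 (17.9-fold, adjusted p 0.000226). Hspb1, which encodes HSP25, had 156 to 458 CPM in GC_CT and 44.3 to 84.8 CPM in Ctrl_CT (2.04 ± 0.33, adjusted p 0.0022), and its reads may be shared with a processed pseudogene. These were the 2 called of 16 heat shock genes, with a median log2 fold change of 0.56 over the list. The heat-inducible Hspa1a (1.24, adjusted p 0.238) and Hsph1 (1.16, adjusted p 0.166) were not called, nor were the small heat shock genes Hspb2, Hspb6, Hspb8 and Cryab (0.50 to 1.01).

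Mthfd2 (chromosome 6, 83305691 to 83325908), a mitochondrial enzyme of folate one-carbon metabolism, had 61.1, 39.5, 292, 69.1 and 57.3 CPM in GC_CT, against 11.7, 15.01, 12.3, 22.9 and 11.1 CPM in Ctrl_CT. All GC_CT libraries lay above the controls and GC_CT 3 far above the rest (2.83 ± 0.51, adjusted p 0.00645). Without GC_CT 3 the log2 fold change was 1.96, and the gene was still called. It was the only called gene of 20 in the list of ATF4, serine and one-carbon genes. Phgdh, Psat1, Shmt2 and Asns, which make serine, glycine and asparagine, had log2 fold changes of -0.15 to 0.72 and were not called. Outside the list, and named after its values were seen, Cbs, which turns homocysteine into cystathionine, rose as well, with 8.36 to 28.1 CPM in GC_CT and 0.488 to 4.72 CPM in Ctrl_CT (2.43 ± 0.48, adjusted p 0.0108). Without the epididymis-rich libraries the adjusted p of Cbs was 0.102.

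Several signalling genes rose without overlap. Dusp10, a phosphatase that switches off the stress kinases p38 and JNK, had 63.8, 34.0, 39.9, 35.8 and 35.4 CPM in GC_CT, against 8.89, 4.39, 6.19, 13.1 and 4.47 CPM in Ctrl_CT (2.49 ± 0.36, adjusted p 0.000825). It was the 1 called of 12 MAP kinase phosphatases. Alkal2, a ligand of the receptor kinase ALK, had 24.8 to 84.1 CPM in GC_CT and 3.67 to 19.9 CPM in Ctrl_CT (2.43 ± 0.44, adjusted p 0.00637, and 0.0856 without the epididymis-rich libraries). Vgll3, a cofactor of TEAD transcription factors, rose by 2.38 ± 0.36 and Rasl11a, a small GTPase-like protein, by 2.05 ± 0.35 on the log2 scale. Dtx4, a ubiquitin ligase of the Deltex family, was tight within both groups, at 36.5 to 56.8 CPM in GC_CT and 9.47 to 15.2 CPM in Ctrl_CT (2.08 ± 0.29, adjusted p 0.000469). Folh1, a carboxypeptidase that removes glutamate from folates and peptides, had 19.6 to 48.6 CPM in GC_CT and 4.51 to 11.8 CPM in Ctrl_CT (2.05 ± 0.30, adjusted p 0.000812). Irs3, an insulin receptor substrate of rodent adipocytes that was named after its values were seen, had 191 to 233 CPM in GC_CT and 41.6 to 87.2 CPM in Ctrl_CT (1.76 ± 0.24, adjusted p 0.000469).

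Genes that remodel or cross-link the extracellular matrix formed the next group. Timp4 (chromosome 6, 115241892 to 115252205), an inhibitor of metalloproteinases, had 787, 1844, 1841, 778 and 1624 CPM in GC_CT, against 381, 256, 299, 269.9 and 273 CPM in Ctrl_CT (2.22 ± 0.27, adjusted p 9.71e-05). Lox, the lysyl oxidase that cross-links collagen and elastin, had 230.1, 100.5, 111, 114 and 202 CPM in GC_CT, against 33.1, 30.2, 63.0, 45.5 and 48.6 CPM in Ctrl_CT (1.78 ± 0.30, adjusted p 0.00269). Adamts5, which cleaves aggrecan and versican, had 181 to 490.1 CPM in GC_CT and 82.6 to 154 CPM in Ctrl_CT (1.53 ± 0.24, adjusted p 0.0014). For all 3 the lowest GC_CT library was above the highest control. They were the called members of 20 cross-linking enzymes, proteases and inhibitors, whose median was 0.39, and all 3 stayed called without the epididymis-rich libraries. Olfml3, a secreted matrix glycoprotein, had 22.0 to 113 CPM in GC_CT and 7.36 to 13.4 CPM in Ctrl_CT (2.50 ± 0.42, adjusted p 0.0028, and 0.0515 without the epididymis-rich libraries).

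No gene was called among 18 fibrillar collagens and other matrix proteins, with a median of -0.01; 5 had an unadjusted p under 0.05, DESeq2 called 2 and limma voom 3. The basement membrane list held 1 called gene of 17, Col18a1, the collagen that yields endostatin (0.97 ± 0.22, adjusted p 0.0253). Htra1, a secreted serine protease, had 366 to 831 CPM in GC_CT and 125 to 228 CPM in Ctrl_CT (1.61 ± 0.34, adjusted p 0.02), and Igfbp3, a carrier of insulin-like growth factors, 34.2 to 80.4 CPM in GC_CT and 14.2 to 31.7 CPM in Ctrl_CT (1.36 ± 0.33, adjusted p 0.04). Both belong to the insulin-like growth factor list, in which 2 of 12 rose. Wnt11, the 1 called of 14 Wnt genes and secreted Wnt inhibitors, had 5.13 to 9.59 CPM in GC_CT and 1.57 to 4.03 CPM in Ctrl_CT (1.57 ± 0.34, adjusted p 0.02). These 4 calls depended on single libraries. Col18a1 lost its call without GC_CT 2, 3 or 5 or Ctrl_CT 2, 3, 4 or 5, Htra1 without GC_CT 5 or Ctrl_CT 1, 4 or 5, Igfbp3 without GC_CT 1, 3 or 5 or Ctrl_CT 1, 3, 4 or 5, and Wnt11 without GC_CT 3 or 5 or Ctrl_CT 4 or 5, with adjusted p-values of up to 0.0771, 0.064, 0.112 and 0.0659. With Ctrl_CT 1 and 4 left out, the adjusted p was 0.18 for Htra1, 0.2 for Igfbp3 and 0.159 for Wnt11.

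Leptin and a few lipid genes rose. Lep (chromosome 6, 29060220 to 29073877), the satiety hormone of adipocytes, had 1913, 1822, 1214, 496 and 1708 CPM in GC_CT, against 455, 612, 445, 556 and 321 CPM in Ctrl_CT. GC_CT 4 lay within the range of the controls and the other 4 above it (1.58 ± 0.34, 2.99-fold, adjusted p 0.0211). G0s2, an inhibitor of the lipase ATGL, had 540.5, 767, 1454, 1690 and 1099 CPM in GC_CT, against 279, 233, 229, 367 and 386 CPM in Ctrl_CT (1.89 ± 0.32, adjusted p 0.0028), the 1 called of 16 lipolysis and lipid droplet genes. Angptl4, a secreted inhibitor of lipoprotein lipase, had 669.8 to 2181 CPM in GC_CT and 348 to 663 CPM in Ctrl_CT (1.40 ± 0.34, adjusted p 0.0397), and Gpihbp1, which anchors that lipase in capillaries, 65.5 to 176 CPM in GC_CT and 220.4 to 303 CPM in Ctrl_CT (-1.27 ± 0.31, adjusted p 0.0376). Neither overlapped, and they were the 1 riser and 1 faller among 18 triglyceride synthesis and fatty acid uptake genes. Rxrg, a partner of nuclear receptors and the 1 called of 14 adipogenic transcription factors, had 21.6 to 44.3 CPM in GC_CT and 11.4 to 19.5 CPM in Ctrl_CT (1.26 ± 0.24, adjusted p 0.00927). Calls were lost for Lep without GC_CT 5 or Ctrl_CT 1, 3 or 5, for Angptl4 without GC_CT 3, 4 or 5 or any 1 Ctrl_CT library and for Gpihbp1 without GC_CT 3, 4 or 5 or any 1 Ctrl_CT library, with adjusted p-values of up to 0.0686, 0.126 and 0.108. Fitted without the epididymis-rich libraries, the adjusted p was 0.116 for Lep, 0.231 for Angptl4, 0.145 for Gpihbp1 and 0.113 for Rxrg.

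Single members of other lists were called. Agt, which encodes angiotensinogen (1.54 ± 0.39, adjusted p 0.049), Ffar4, a receptor for long-chain fatty acids (1.50 ± 0.35, adjusted p 0.0311), Hmgcs1 of cholesterol synthesis (1.18 ± 0.26, adjusted p 0.0236) and Osgin1, a gene under NRF2 control (2.17 ± 0.49, adjusted p 0.0282), rose. Nrg4, an adipokine of the neuregulin family that signals to liver, fell, with 17.6 to 64.9 CPM in GC_CT and 75.4 to 178 CPM in Ctrl_CT (-1.76 ± 0.35, adjusted p 0.0111), so that 2 of 16 adipokines rose and 1 fell. Agt lost its call without GC_CT 2, 3 or 5 or any 1 Ctrl_CT library (adjusted p up to 0.146), Ffar4 without GC_CT 3, 4 or 5 or Ctrl_CT 1, 2, 4 or 5 (0.0922) and Hmgcs1 without GC_CT 4 or 5 or Ctrl_CT 3, 4 or 5 (0.0753). Osgin1 lost it without GC_CT 3 or 5 or Ctrl_CT 1, 2, 3 or 5 (0.0699). In the fit without Ctrl_CT 1 and 4, the adjusted p was 0.18 for Agt, 0.225 for Ffar4 and 0.155 for Hmgcs1.

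**Figure D3:**
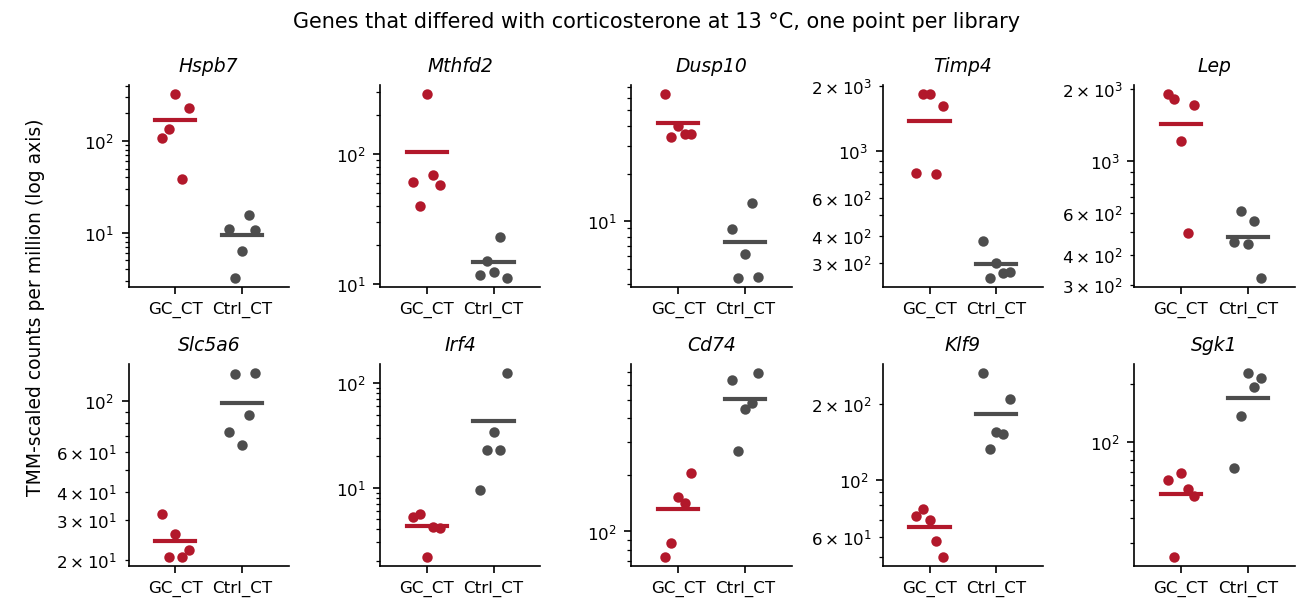
CPM (y axis, log scale) of genes outside the clock in the 5 GC_CT (red) and 5 Ctrl_CT (grey) libraries of goWAT, 1 point per library, with bars at the group means. Hspb7 lies at 38.7 to 327 CPM in GC_CT and 3.21 to 15.7 CPM in Ctrl_CT, and Slc5a6 at 20.7 to 31.8 CPM in GC_CT and 64.3 to 133 CPM in Ctrl_CT.

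Transporters and transcription factors stood among the genes that fell. Slc5a6 (chromosome 5, 31036036 to 31048924), the sodium-dependent importer of biotin and pantothenate, had 31.8, 20.7, 26.1, 20.7 and 22.2 CPM in GC_CT, against 73.3, 132, 64.3, 86.8 and 133 CPM in Ctrl_CT (-2.01 ± 0.24, adjusted p 9.71e-05). Every GC_CT library lay below the lowest control. Irf4 (chromosome 13, 30749226 to 30766976), a transcription factor that in adipocytes favours lipolysis, had 5.26, 5.59, 2.19, 4.24 and 4.13 CPM in GC_CT, against 9.45, 22.9, 34.4, 22.9 and 126 CPM in Ctrl_CT (-3.34 ± 0.75, adjusted p 0.0349). The groups did not overlap, but the controls spread widely, and the call was lost without any 1 GC_CT library or Ctrl_CT 3 or 5 (adjusted p up to 0.0924). Without Ctrl_CT 5, the highest, the log2 fold change was -2.39. Of 9 interferon regulatory factors it was the only one called, while 5 had an unadjusted p under 0.05 by the same edgeR test. DESeq2 and limma voom each called 1 of the 9 higher and 4 lower.

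Pcsk4, a proprotein convertase, had 3.20 to 10.0 CPM in GC_CT and 19.8 to 60.8 CPM in Ctrl_CT (-2.31 ± 0.37, adjusted p 0.00175). Depp1, a target of FOXO factors, had 59.3, 80.3, 40.9, 34.1 and 23.3 CPM in GC_CT, against 213, 176, 249, 180.0 and 203 CPM in Ctrl_CT (-2.10 ± 0.39, adjusted p 0.00637). Kcna5, a voltage-gated potassium channel, had 2.77 to 10.1 CPM in GC_CT and 18.3 to 26.4 CPM in Ctrl_CT (-1.94 ± 0.41, adjusted p 0.02). Each of these 3 was lower with no overlap, and the call of Kcna5 was lost without GC_CT 3, 4 or 5 (adjusted p up to 0.0593) and without both epididymis-rich libraries (0.101). Abcg2, a drug and urate exporter, had 28.3, 33.0, 23.2, 20.5 and 15.8 CPM in GC_CT, against 128, 45.0, 40.0, 507 and 52.8 CPM in Ctrl_CT (-2.68 ± 0.59, adjusted p 0.0291). The highest controls were Ctrl_CT 1 and 4, the epididymis-rich ones, and without them the log2 fold change was -0.93 (adjusted p 0.253). Its call was also lost without GC_CT 3, 4 or 5 or Ctrl_CT 4 (adjusted p up to 0.0864), and the log2 fold change was -1.46 without Ctrl_CT 4. Slc5a6 and Abcg2 were the 2 called of 19 amino acid, vitamin and drug transporters.

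Genes of antigen presentation by MHC class II were lower. Cd74, the invariant chain that guides class II molecules, had 73.3, 87.2, 152, 142 and 203 CPM in GC_CT, against 642, 269, 445, 482 and 697 CPM in Ctrl_CT (-1.95 ± 0.32, adjusted p 0.00256), with no overlap. H2-Aa and H2-Eb1, class II chains, had log2 fold changes of -1.74 ± 0.38, adjusted p 0.0217, and -1.604 ± 0.38, adjusted p 0.0323, while H2-Ab1 missed the threshold (-1.31, adjusted p 0.0682). The 3 were the called members of 18 lymphocyte and class II markers, whose summed level was 196 to 785 CPM in GC_CT and 697 to 1860 CPM in Ctrl_CT. The T cell genes Cd3e, Cd4 and Cd8a and the B cell gene Cd79a had log2 fold changes of -0.82 to 0.98 and were not called. Over the 18 markers the median was -0.37, and 5 had a log2 fold change above 0. By the same edgeR test 4 of the 18 had an unadjusted p under 0.05, and DESeq2 and limma voom each called 4 lower. None of 14 macrophage markers was called by edgeR, DESeq2 or limma voom, 3 had an unadjusted p under 0.05, and they summed to 758 to 2651 CPM in GC_CT and 699.5 to 1461 CPM in Ctrl_CT. Vcam1, an adhesion molecule named after its values were seen, fell without overlap, with 5.79 to 12.8 CPM in GC_CT and 19.9 to 53.2 CPM in Ctrl_CT (-1.66 ± 0.32, adjusted p 0.0101). The call of H2-Aa was lost without Ctrl_CT 1 or 5 and that of H2-Eb1 without GC_CT 2, 3 or 4 or Ctrl_CT 1, 3, 4 or 5 (adjusted p up to 0.0686 and 0.0881), and without the epididymis-rich libraries their adjusted p was 0.106 and 0.166.

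Of 14 endothelial markers 1 fell, Cdh5, which encodes VE-cadherin, with 35.8 to 56.9 CPM in GC_CT and 76.8 to 101 CPM in Ctrl_CT (-1.07 ± 0.26, adjusted p 0.0415). The list had a median of -0.54 and summed to 838 to 1687 CPM in GC_CT and 1070 to 1218 CPM in Ctrl_CT. By the same edgeR test 7 of the 14 had an unadjusted p under 0.05, as had 3114 of all 20175 genes. DESeq2 called 1 endothelial marker higher and 1 lower, and limma voom 1 higher and 5 lower. Rrm2, the ribonucleotide reductase subunit of dividing cells, was the 1 called of 18 cell cycle genes (-1.78 ± 0.45, adjusted p 0.0491), and without GC_CT 5 its log2 fold change was -2.40. Cdh5 lost its call without GC_CT 2, 3, 4 or 5 or any 1 Ctrl_CT library and Rrm2 without GC_CT 1, 2, 3 or 4 or any 1 Ctrl_CT library, with adjusted p-values of up to 0.116 and 0.124. Without the epididymis-rich libraries they were 0.18 and 0.118.

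Classical targets of the glucocorticoid receptor moved in both directions. Of 20 such genes 2 rose, Angptl4 and Igfbp3 described above, and 2 fell, and the median log2 fold change was 0.03. By the same edgeR test 11 of the 20 had an unadjusted p under 0.05, as had 3114 of all 20175 genes. DESeq2 and limma voom each called 3 higher and 5 lower. Errfi1 (-1.43, adjusted p 0.0551) and Nfkbia (-1.11, adjusted p 0.0696) were lower and Rasd1 (1.91, adjusted p 0.068) higher without passing the threshold. Klf9, a transcription factor that glucocorticoids induce acutely in many cells, had 72.2, 77.4, 70.0, 57.7 and 49.97 CPM in GC_CT, against 265, 132, 155, 152 and 209.8 CPM in Ctrl_CT (-1.48 ± 0.22, adjusted p 0.001). Sgk1, a kinase that is another acute target, had 63.1, 25.3, 69.2, 57.2 and 52.4 CPM in GC_CT, against 72.9, 137, 228, 192 and 214 CPM in Ctrl_CT (-1.66 ± 0.34, adjusted p 0.0137). All GC_CT libraries were below all controls for both, and both calls held in each of the 10 fits that left out 1 library. Fkbp5, a co-chaperone that restrains the receptor, overlapped, at 35.1 to 188 CPM in GC_CT and 78.0 to 166 CPM in Ctrl_CT (-0.23 ± 0.34, adjusted p 0.806), with a log2 fold change of 0.026 without the epididymis-rich libraries. Tsc22d3 (GILZ), a mediator of anti-inflammatory effects, ranged over 212 to 1063 CPM in GC_CT and 479 to 891 CPM in Ctrl_CT (-0.23 ± 0.38, adjusted p 0.83), and Mt2, a metallothionein, over 34.0 to 178 CPM in GC_CT and 30.0 to 75.7 CPM in Ctrl_CT (0.86 ± 0.39, adjusted p 0.29).

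No gene was called among 12 corticosteroid receptors, co-chaperones and activating enzymes, with a median of 0.10; 1 had an unadjusted p under 0.05, and DESeq2 and limma voom called 0. Nr3c1 had 81.4 to 136 CPM in GC_CT and 91.0 to 142 CPM in Ctrl_CT (-0.21 ± 0.23, adjusted p 0.716). Hsd11b1, the enzyme that regenerates active corticosterone inside cells, had 742, 873, 286, 145 and 331 CPM in GC_CT, against 282, 317, 219, 207 and 477 CPM in Ctrl_CT (0.66 ± 0.36, adjusted p 0.385). Its highest libraries were GC_CT 1 and 2, which also had the high mitochondrial share, and without these 2 the log2 fold change was -0.24. Cdkn1a (p21), which halts the cell cycle, was not called, at 41.8 to 121 CPM in GC_CT and 22.3 to 51.0 CPM in Ctrl_CT (1.20 ± 0.37, adjusted p 0.1).

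The 7 lists of fatty acid synthesis, oxidative, thermogenic, glycolysis and branched-chain genes that follow held no call. None was called among 15 fatty acid synthesis genes (median -0.27), 18 fatty acid oxidation genes (0.30), 30 respiratory chain subunits (0.31), 13 mitochondrially encoded transcripts (-0.43), 16 thermogenic genes (1.11), 16 glycolysis enzymes (0.20) and 20 genes of branched-chain amino acid breakdown (0.08). Without GC_CT 1 the medians of these 7 lists were -0.92, -0.09, -0.07, -0.83, -0.14, -0.17 and 0.01 in the same order, and 1 thermogenic gene was called higher. By the same edgeR test, 0, 3, 3, 1, 4, 2 and 1 members of these 7 lists had an unadjusted p under 0.05, as had 3114 of all 20175 genes. DESeq2 called 1 thermogenic gene and no other member, and limma voom called 3 mitochondrially encoded transcripts and 1 member each of the respiratory chain, thermogenic, glycolysis and branched-chain lists. Without GC_CT 1 and 2, 4 of the fatty acid synthesis genes, 2 of the mitochondrially encoded transcripts and 1 branched-chain gene were called lower, and 2 thermogenic genes and 1 fatty acid oxidation gene higher. Fasn, fatty acid synthase, had 13110, 4192, 1426, 3137 and 3704 CPM in GC_CT, against 9169, 15380, 4256, 3854 and 4035 CPM in Ctrl_CT (-0.52 ± 0.50, adjusted p 0.678). The groups overlapped and GC_CT 1 was far above the other GC_CT libraries, and without GC_CT 1 the log2 fold change was -1.24 (adjusted p 0.164). Adipoq, which encodes adiponectin, Pnpla2, the lipase ATGL, and Pck1, the glyceroneogenic enzyme, overlapped as well (-0.22 ± 0.31, 0.43 ± 0.27 and -0.33 ± 0.36). Plin1, the main coat protein of the lipid droplet, was higher in every GC_CT library without passing the threshold, at 358 to 561 CPM in GC_CT and 213 to 309.7 CPM in Ctrl_CT (0.68 ± 0.23, adjusted p 0.132).

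Ucp1, the uncoupling protein of brown and beige adipocytes, had 594, 23.1, 1.05, 0.704 and 0.0243 CPM in GC_CT, against 11.4, 8.90, 8.45, 11.5 and 3.56 CPM in Ctrl_CT (3.82 ± 1.99, adjusted p 0.38). GC_CT 1 carried nearly all of it and GC_CT 3 to 5 lay below every control, and without GC_CT 1 the log2 fold change was -0.52. The positive median of the thermogenic list rested on that library, whose brown adipocyte markers summed to 2209 CPM. The median of the brown adipocyte markers was likewise 2.57 with GC_CT 1 and -0.71 without it. The fitted log2 fold changes of the 13 mitochondrially encoded transcripts were all below 0, beside the mitochondrial shares given above.

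**Figure D4:**
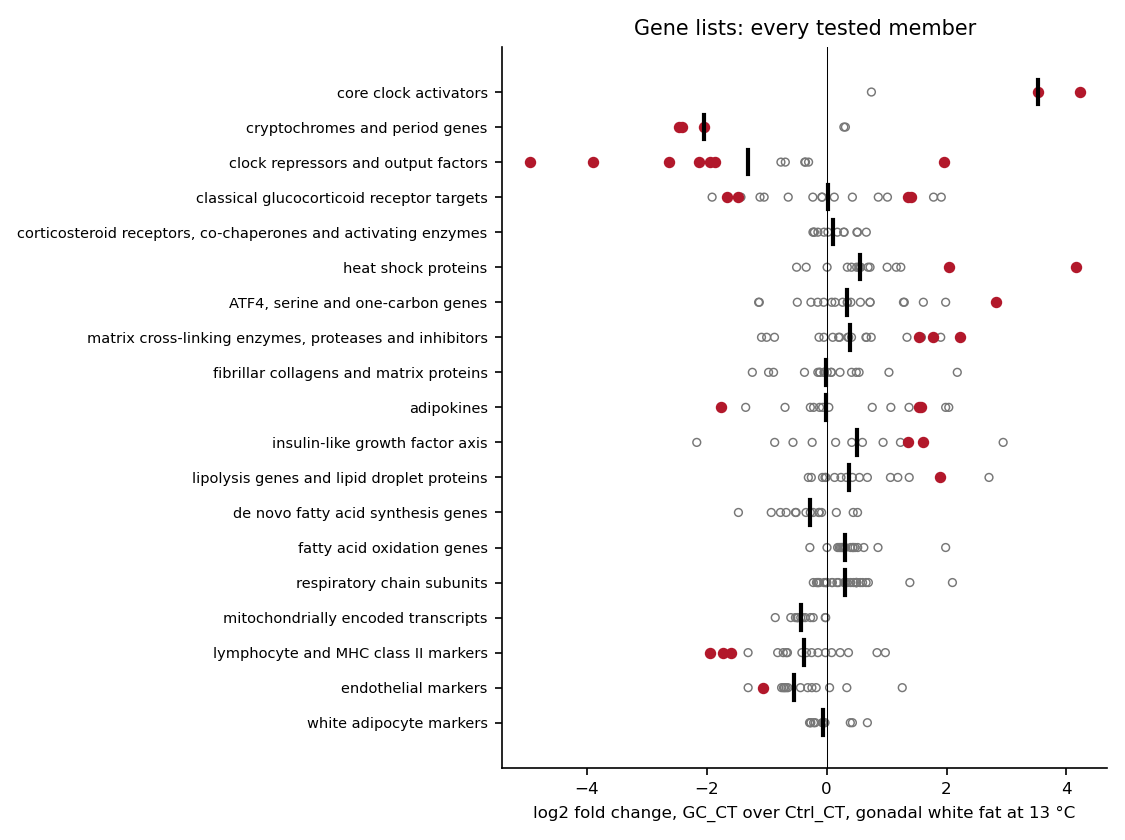
Log2 fold changes of GC_CT over Ctrl_CT in goWAT (x axis) for every tested member of 19 gene lists (y axis), with called genes marked and list medians drawn. The medians of the clock lists are 3.53, -2.04 and -1.31, while those of the receptor targets (0.03) and white adipocyte markers (-0.07) lie near 0.

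The same contrast at 22 °C, GC_RT against Ctrl_RT, was fitted in other goWAT libraries. GC_RT held 12310822 to 38273929 counts and Ctrl_RT 31977093 to 47452558, with mitochondrial shares of 4.53% to 9.87% and 2.00% to 4.48%. Brown adipocyte markers summed to 1503 CPM in GC_RT 1 and epididymis markers to 2060 CPM in GC_RT 5. White adipocyte markers summed to 299500 CPM in GC_RT 2. In the other 22 °C libraries these sums were at most 218, 63.1 and 112000 CPM. Arntl, Nfil3, Per1, Per3, Nr1d2, Dbp, Tef, Ciart, Hspb7, Hspb1, Mthfd2, Dusp10, Timp4, Lox, Adamts5, Lep, Irf4, Slc5a6, Sgk1 and Cd74 were called in the same direction at both temperatures. Of the clock genes called at 13 °C, Npas2, Per2, Hlf and Usp2 had the same sign at 22 °C (1.85, -1.25, -0.75 and -0.22) without being called (adjusted p 0.0719, 0.0561, 0.315 and 0.815), and the difference between temperatures was not called for these 4 (adjusted p 0.185 to 0.349). Among the other genes called at 13 °C, Angptl4 and Gpihbp1 had the opposite sign at 22 °C (-0.19 and 0.19). Ffar4, Rxrg, Irs3 and Depp1 kept their sign (0.18, 0.14, 0.53 and -0.59). None of them was called at 22 °C (adjusted p 0.221 to 0.808) or in the difference between temperatures (adjusted p 0.127 to 0.256). At 22 °C 1206 genes (5.98%) were called. Of the 292 called at 13 °C, 261 (89.4%) had the same sign at 22 °C, as had 57.3% of all tested genes, and 127 were called with the same sign in both, which is 43.5% of the 292 and 10.5% of the 1206. Only 6 genes were called with opposite signs. A test of the difference between the effects (13 °C minus 22 °C) called 93 genes (0.461%), 66 of them positive (0.327%), and 16 of the 292 were among these. That count was 13 without the epididymis-rich libraries (Ctrl_CT 1 and 4, GC_RT 5), 50 without the shallowest GC_RT libraries, and 159 without the brown-rich GC_CT 1 and GC_RT 1. It was 50, 53 and 60 without GC_CT 3, 4 or 5, 49, 54 and 50 without Ctrl_CT 1, 4 or 5, and 54, 62 and 35 without Ctrl_RT 1, 2 or 4. It was 149 without GC_CT 2 and 180 without GC_RT 1.

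For several hormone-responsive genes the effect at 13 °C lay below that at 22 °C. Hspb7 had 216 to 696 CPM in GC_RT and 1.22 to 1.98 CPM in Ctrl_RT (log2 fold change 7.86, beside 4.16 at 13 °C), and the difference was -3.70 ± 0.71 (adjusted p 0.0167). Mt2 had 109 to 643 CPM in GC_RT and 17.4 to 28.4 CPM in Ctrl_RT (4.14, beside 0.86), a difference of -3.28 ± 0.59 (adjusted p 0.0105). Fkbp5 had 119.7 to 222 CPM in GC_RT and 34.7 to 64.8 CPM in Ctrl_RT (1.99, beside -0.23), a difference of -2.21 ± 0.50 (adjusted p 0.0481). The placebo libraries of Fkbp5 stood at 78.0 to 166 CPM at 13 °C and at 34.7 to 64.8 CPM at 22 °C, without overlap. Those of Hspb7 (3.21 to 15.7 CPM) and Mt2 (30.0 to 75.7 CPM) at 13 °C also lay above those at 22 °C without overlap. The placebo libraries of Cdkn1a and Klf9 overlapped between the temperatures. Cdkn1a had 159 to 397 CPM in GC_RT and 8.14 to 36.0 CPM in Ctrl_RT (3.60, beside 1.20), a difference of -2.41 ± 0.54 (adjusted p 0.0463). Klf9 had 104 to 198 CPM in GC_RT and 126 to 148 CPM in Ctrl_RT (0.03, beside -1.48), a difference of -1.51 ± 0.32 (adjusted p 0.0345). The difference of Nr1d1 was positive, with -2.05 at 22 °C beside -0.76 at 13 °C (difference 1.28 ± 0.29, adjusted p 0.0463).

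Of these differences, that of Mt2 was called in each of the 19 fits without 1 library, and that of Hspb7 in all except the one without Ctrl_RT 4 (adjusted p 0.0793). Those of Fkbp5, Cdkn1a, Klf9 and Nr1d1 were called in 6, 4, 8 and 6 of the 19, with adjusted p-values of up to 0.17, 0.105, 0.112 and 0.118. They stayed called only for Fkbp5 without GC_CT 1 or 2, Ctrl_CT 2 or 3, GC_RT 1 or Ctrl_RT 3; Cdkn1a without GC_CT 2, Ctrl_CT 2, GC_RT 1 or Ctrl_RT 2; Klf9 without GC_CT 1 or 2, Ctrl_CT 2, 3 or 4 or GC_RT 1, 3 or 5; Nr1d1 without GC_CT 1 or 2, Ctrl_CT 3, GC_RT 1 or 2 or Ctrl_RT 3. Without the epididymis-rich libraries none of the 6 was called (adjusted p 0.0915 to 0.305).

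The smallest adjusted p of the temperature difference belonged to Lsm4 and Rnf187, with effects of opposite sign. Lsm4, part of the ring that binds U6 RNA in splicing, had 31.7, 52.7, 61.9, 60.5 and 55.2 CPM in GC_CT, against 22.6, 24.4, 17.8, 16.5 and 18.9 CPM in Ctrl_CT (1.39 ± 0.20, adjusted p 0.000825). Every GC_CT library was above every control. At 22 °C it had 34.5 to 42.5 CPM in GC_RT and 62.0 to 104 CPM in Ctrl_RT (-1.12), and the difference was 2.50 ± 0.29 (adjusted p 0.000161). Rnf187, a ubiquitin ligase, had 136 to 193 CPM in GC_CT and 65.5 to 96.7 CPM in Ctrl_CT (0.97 ± 0.23, adjusted p 0.0311), beside 72.9 to 149 CPM in GC_RT and 267 to 525 CPM in Ctrl_RT (-1.97), a difference of 2.94 ± 0.33. Zdhhc7, a palmitoyltransferase, Inafm1, Fance of the Fanconi DNA repair complex and Kctd13, an adaptor of cullin 3, had differences of 2.43 ± 0.34, 2.60 ± 0.36, 3.06 ± 0.45 and 2.87 ± 0.42. Plin1, with 261 to 491 CPM in GC_RT and 750.1 to 1301 CPM in Ctrl_RT (-1.33), also differed, by 2.01 ± 0.33 (adjusted p 0.00522). For each of these 7 genes the highest mean of the 4 goWAT groups was that of Ctrl_RT, and each difference was called in all 19 fits without 1 library. Of the 7, only Plin1 lost the call without the epididymis-rich libraries (adjusted p 0.0667). Within 13 °C, Rnf187 lost its call without GC_CT 2, 3 or 4 or any 1 Ctrl_CT library, and Inafm1 (0.997 ± 0.25) without GC_CT 1, 3, 4 or 5 or any 1 Ctrl_CT library (adjusted p up to 0.0951 and 0.124), and without the epididymis-rich libraries their adjusted p was 0.149 and 0.181.

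**Figure D5:**
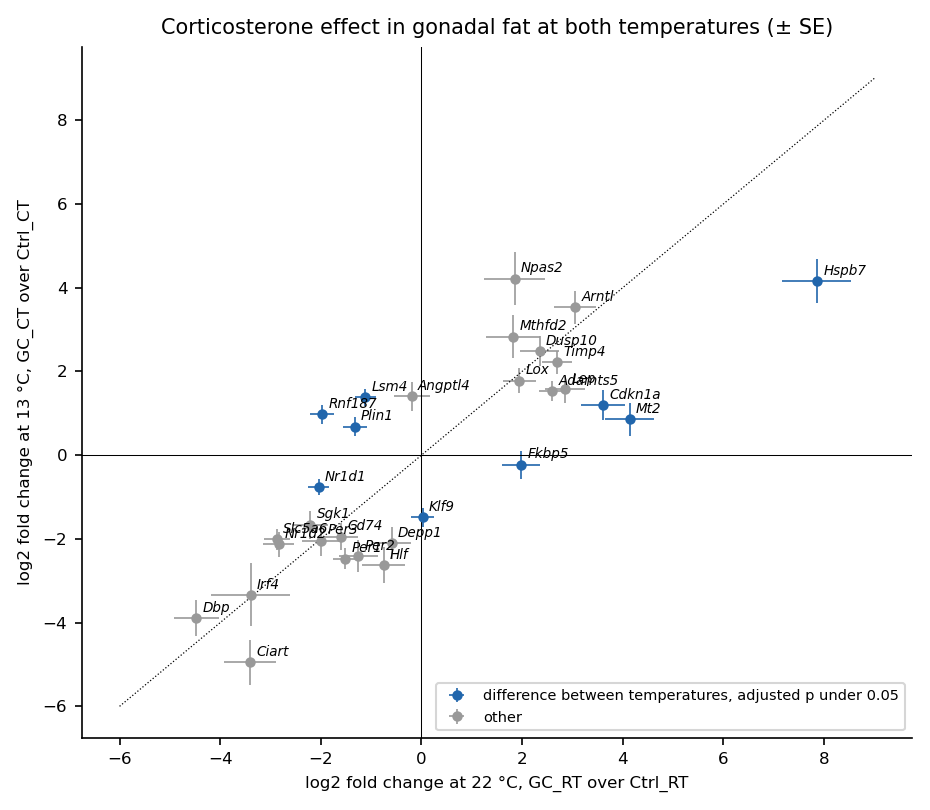
Log2 fold change of corticosterone over placebo in goWAT at 13 °C (y axis) and at 22 °C (x axis) for named genes, with bars of 1 SE and a dotted line of equal effects. Genes whose effects differed between temperatures (blue, adjusted p under 0.05) include Hspb7 (4.16 at 13 °C, 7.86 at 22 °C) and Plin1 (0.68 and -1.33), which lie off that line.

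Subcutaneous fat at the same temperature also had clock changes. In scWAT, fitted together with goWAT on 19310 genes, 1034 (5.35%) were called, and Arntl (3.69), Npas2 (4.93), Per1 (-2.54), Dbp (-4.11), Ciart (-4.10), Irf4 (-3.85), Slc5a6 (-1.77) and Sgk1 (-1.84) were called with these log2 fold changes. The difference between the depots was not called for any of the 8, with adjusted p-values of 0.506 to 0.971; this does not show that the depots responded alike. Other genes called in goWAT were not called in scWAT, among them Hspb7 (3.07), Mthfd2 (0.89), Hspb1 (0.08) and Cdh5 (-0.0019). Their adjusted p in scWAT was 0.0658 to 0.998, and their depot difference was not called either (adjusted p 0.0609 to 0.692). The test of that difference (goWAT minus scWAT) called 189 genes (0.979%), of which 13 were among the 292. Mrpl34, a mitochondrial ribosomal protein, had a log2 fold change of 0.62 in goWAT and -1.31 in scWAT (difference 1.92 ± 0.27, adjusted p 0.00524). Lsm4 differed by 2.28 ± 0.35, Cox5a, a subunit of complex IV, by 1.92 ± 0.35, Pgam1 of glycolysis by 1.63 ± 0.30, and Inafm1 by 1.89 ± 0.35. Phf8, a histone demethylase, and Tshr, the thyrotropin receptor, had 0.24 and 0.19 in goWAT and 1.59 and 1.78 in scWAT, differences of -1.38 ± 0.23 and -1.61 ± 0.30.

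The depot differences rested on few libraries. Without the epididymis-rich Ctrl_CT 1 and 4 only 2 genes were called, among them Mrpl34 (adjusted p 0.0133), while Lsm4, Cox5a, Pgam1, Inafm1, Phf8 and Tshr had adjusted p-values of 0.0639 to 0.0858. In goWAT the count was 75, 89 and 81 without GC_CT 3, 4 or 5, 57, 57, 54 and 67 without Ctrl_CT 1, 3, 4 or 5, 366 without GC_CT 2 and 333 without Ctrl_CT 2. In scWAT it was 52, 18 and 595 without GC_CT 3, 4 or 5, and 37, 106, 47 and 403 without Ctrl_CT 2, 3, 4 or 5. Pgam1 and Inafm1 lost the call without GC_CT 4 of scWAT (adjusted p 0.0565 and 0.0534), and the other 5 named genes kept it in all 19 such fits. Rps2, a ribosomal protein whose pseudogenes may share its reads, was called at 13 °C (1.27 ± 0.28), between temperatures (2.17 ± 0.40) and between depots (1.95 ± 0.36). Its call at 13 °C was lost without GC_CT 3, 4 or 5 or Ctrl_CT 2, 3, 4 or 5 (adjusted p up to 0.0706), and that between depots without GC_CT 4 of scWAT (0.0566). Without the epididymis-rich libraries the adjusted p of these 3 was 0.13, 0.0915 and 0.0858.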

How the data were processed

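The authors deposited raw read counts per Ensembl gene for each depot. Per the submitters' processing notes, FastQC, GSNAP, featureCounts 1.6.3 and mm10 were used; the annotation release and strand setting were not stated there, and SMART-Seq2 marks no strand, so overlapping and antisense genes cannot be told apart. Libraries were grouped by their labels. Counts of the 19 goWAT libraries were fitted with 4 group means (edgeR 4.0.16 in R 4.3.3, TMM scaling, filterByExpr with a minimum count of 10 and a total of 15, robust quasi-likelihood test). Of 31933 genes, 20175 were tested for corticosterone against placebo at 13 °C and at 22 °C and for the difference; p-values were Benjamini-Hochberg adjusted over all of them. The depot difference came from a joint fit of the 19 goWAT and scWAT libraries of 13 °C (19310 genes). The biological coefficient of variation was 50% and 42.9% in these fits. Totals ranged from 26050829 to 53121372 counts per 13 °C goWAT library. Fits were tested on simulated counts with 200 changed genes.

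Gene names came from GENCODE M21 and promoters from RefSeq on GRCm38.p6. The members and the 51 gene lists (692 distinct genes, 2 without a count) were chosen with earlier results of these data known. Named were the 12 largest rises and 12 largest falls without overlap and a mean of at least 3 log2 CPM, up to 4 called members per list and direction, every clock gene, a fixed set, and the 6 smallest adjusted p of each difference; the text names fewer of them, and some are not reported here. Other list members named without a call, and genes said so, were chosen after their values were seen. Alternatives were RLE size factors, DESeq2 1.42.0, limma 3.58.1 voom with library weights, other filters, libraries left out, 13 °C libraries alone and a replicate block.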

Additional observations from a re-analysis of the deposited data

Results flagged for a closer look

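In 13 of 206 groups of 5 libraries, 1 library lay apart from the rest by Dixon's test, which chance does in about 1 of 20 groups. Among corticosterone libraries at 13 °C, GC_CT 1 had the highest Dusp10 (63.8 CPM) and summed brown adipocyte markers (2209 CPM) and the lowest Lsm4 (31.7 CPM) and Rps2 (90.7 CPM). GC_CT 2 had the highest Adipoq (6164 CPM) and Tshr (273 CPM) and the lowest Sgk1 (25.3 CPM), and GC_CT 3 the highest Mthfd2 (292 CPM) and Apoa2 (112 CPM). Among placebo libraries, Ctrl_CT 2 had the lowest H2-Eb1 (106 CPM) and summed lymphocyte and MHC class II markers (697 CPM), Ctrl_CT 4 the highest summed erythrocyte markers (7085 CPM) and Ctrl_CT 5 the lowest Ucp1 (3.56 CPM).

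The corticosterone effect in goWAT differed between 13 °C and 22 °C by the edgeR test of the difference for 14 genes named here. On the log2 scale, 13 °C minus 22 °C, it was -3.70 for Hspb7, -3.28 for Mt2, -2.41 for Cdkn1a, -2.21 for Fkbp5 and -1.51 for Klf9. It was 1.28 for Nr1d1, 2.01 for Plin1, 2.17 for Rps2, 2.43 for Zdhhc7, 2.50 for Lsm4, 2.60 for Inafm1, 2.87 for Kctd13, 2.94 for Rnf187 and 3.06 for Fance. At 13 °C the effect in goWAT minus that in scWAT was 2.28 for Lsm4, 1.95 for Rps2, 1.92 for Mrpl34, 1.92 for Cox5a, 1.89 for Inafm1, 1.63 for Pgam1, 1.19 for Zdhhc7, -1.38 for Phf8 and -1.61 for Tshr. The depot difference of Zdhhc7 was called in 12 of 19 fits without 1 library and lost without Ctrl_CT 3, 4 or 5 of goWAT and GC_CT 3 or 4 or Ctrl_CT 2 or 4 of scWAT (adjusted p up to 0.0827), and without the epididymis-rich libraries (0.104).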

How the results depend on the processing

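The 292 calls became 912 with DESeq2, 2214 with limma voom, 500 with the 13 °C libraries alone, 85 without the epididymis-rich libraries, 130 when the brown-rich GC_CT 1 was left out too, 738 without GC_CT 1 and 2, and 117 to 377 when 1 library was left out. The 93 temperature differences became 417 with DESeq2, 191 with voom, 13 without the epididymis-rich, 159 without the brown-rich, 301 without GC_CT 1 and 2, 50 without the shallowest GC_RT libraries, and 35 to 180 when 1 library was left out. The 189 depot differences became 930 with DESeq2, 1273 with voom, 100 with no filter, 299 with a minimum of 50 counts, 2 without the epididymis-rich libraries, 474 without GC_CT 1 and 2, and 18 to 595 when 1 library was left out. The cause of these shifts was not tested. The alternatives without GC_CT 1 and 2, without the shallowest GC_RT libraries and without epididymis-rich and brown-rich libraries together were chosen after seeing the data.

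Same-numbered libraries did not all deviate together, with correlations of -0.07 to 0.12 between the 13 °C groups of goWAT and of -0.18 to 0.21 between goWAT and scWAT libraries of 1 group, so the numbers were not taken to pair libraries. A replicate block gave 160 calls, 236 depot differences and 0 temperature differences by edgeR, where 1557 genes had an unadjusted p under 0.05 and DESeq2 and voom, without the block, called the 417 and 191 above. All 60 called genes named here kept their sign in all 21 alternatives, and 36 were called in every fit without 1 library. Fkbp5 turned to 0.026 without the epididymis-rich libraries and Hsd11b1 to -0.24 without GC_CT 1 and 2. Ucp1 turned to -3.30 with voom, -0.52 without GC_CT 1 (up to 4.14 without others), -3.85 without GC_CT 1 and 2, -0.18 without both kinds of marker-rich libraries and -1.50 with the block. In simulated counts of 20175 genes, 200 genes with a mean above 1 CPM were changed. The 13 °C test recovered 18% of 2-fold and 82% of 4-fold changes, so that most 2-fold changes were missed in this setting. Recovery was 1% and 51% for the temperature difference, and 8% and 56% for the depot difference in simulated counts of 19310 genes. Simulated libraries shared pooled mean levels and none was marker-rich, so recovery in the real data may differ.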
